A study of Mus musculus with 16 samples.

Results

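8 ion channel genes of microglia and macrophages (Kcnk13, Kcnk6, Kcna3, Kcnn4, Kcnj2, Hvcn1, Trpv2 and Trpm2) were followed in sorted brain myeloid cells. They were chosen by name. All 8 had a transcript in at least 1 library, out of 18580 genes in the whole series, and all 8 passed the filter on low counts in every comparison. The cells came from mice of both sexes on the C57BL/6N background, either WT or with a deletion of the haemoglobin scavenger receptor gene Cd163 (CD163KO, allele CD163tm1.1(KOMP)Vlcg, WT littermates). Every mouse was injected in both striata at 12 weeks of age, with α-syn as monomer (α-syn MONO) or as pre-formed fibrils (α-syn PFF), so no group was left without α-syn. At 2 months p.i. macrophages (CD11b+ CD45high, a gate that by the study's account takes in border-associated and infiltrating macrophages as well as neutrophils and NK cells) and microglia (CD11b+ CD45low or intermediate) were sorted, and full-length mRNA was sequenced by SMART-seq2.

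Channels set the membrane potential and ion gradients of myeloid cells. Potassium channels hold the potential negative and let potassium leave the cell, which is a known trigger of inflammasome activation. The proton channel carries out the acid that the NADPH oxidase generates during the respiratory burst, and the TRP channels admit calcium and other cations. Among the potassium channels, Kcnk13 and Kcnk6 encode tandem-pore leak channels, of which Kcnk13 is known for the resting potential and process motility of microglia. Kcnj2 encodes an inward rectifier, Kcna3 a voltage-gated channel and Kcnn4 a calcium-activated channel.

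The genes lie at chr12:99963149-100062682 (Kcnk13), chr7:29221928-29232522 (Kcnk6), chr3:107036162-107038129 (Kcna3), chr7:24369826-24385212 (Kcnn4), chr11:111066164-111076825 (Kcnj2), chr5:122206805-122242297 (Hvcn1), chr11:62574486-62600305 (Trpv2) and chr10:77907722-77969909 (Trpm2) of GRCm38.p6, and each is annotated by RefSeq as protein-coding. Of the 8, 6 had a RefSeq promoter window, and Kcnk6 and Hvcn1 are named only. The 250 bases before the transcript start were searched on both strands for GAGGAAGT, the letters of a site bound by PU.1, the factor that myeloid cells depend on, and for its first part, GAGGAA, which every GAGGAAGT also holds. Only Trpv2 of the 6 held GAGGAAGT, which 2.79% of the 27025 genes with a window held. Kcna3, Kcnj2, Kcnk13 and Trpv2 held GAGGAA, which 25.9% of genes held. The windows that end before the annotated gene are shown for Trpv2, with GAGGAAGT in capitals 14 bases before the start, and for Kcna3 and Kcnj2, with GAGGAA or its reverse complement in capitals. They lie at chr11:62574236-62574485, chr3:107035912-107036161 and chr11:111065914-111066163 of GRCm38.p6, all on the plus strand.
Kcna3: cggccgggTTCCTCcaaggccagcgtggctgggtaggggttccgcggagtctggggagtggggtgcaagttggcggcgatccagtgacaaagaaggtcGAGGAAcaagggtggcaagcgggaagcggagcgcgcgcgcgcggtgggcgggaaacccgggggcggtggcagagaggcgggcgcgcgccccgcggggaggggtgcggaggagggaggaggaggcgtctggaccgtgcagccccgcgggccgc
Trpv2: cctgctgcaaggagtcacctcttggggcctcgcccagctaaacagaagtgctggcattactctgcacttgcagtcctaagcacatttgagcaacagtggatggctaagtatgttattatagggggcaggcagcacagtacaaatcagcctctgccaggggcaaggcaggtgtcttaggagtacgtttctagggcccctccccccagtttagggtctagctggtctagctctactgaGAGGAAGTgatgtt
Kcnj2: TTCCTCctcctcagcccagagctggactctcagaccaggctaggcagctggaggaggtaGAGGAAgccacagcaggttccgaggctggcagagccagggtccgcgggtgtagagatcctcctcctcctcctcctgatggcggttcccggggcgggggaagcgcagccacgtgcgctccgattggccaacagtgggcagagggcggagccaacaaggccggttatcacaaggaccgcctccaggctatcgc
These matches describe letters in the windows and do not show binding. No position of a factor was measured in these libraries.

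One library was analysed for each combination of population, sex, genotype and treatment, so 8 libraries of macrophages and 8 of microglia. Macrophage libraries held 12170686 to 21433841 estimated counts, and microglia libraries 8648751 to 18768238. As a check of the sort, 10 homeostatic microglia markers had a summed FPKM of 16628 to 42722 in microglia and of 916 to 1735 in macrophages, and 8 markers of border-associated macrophages one of 27.8 to 166 in microglia and of 1503 to 4416 in macrophages. The 10 neutrophil markers summed to an FPKM of 22097 to 134403 in macrophages, none of them at 0, and of 947 to 2699 in microglia, with at most 2 at 0. Cd163 had 0 to 1 counts in CD163KO macrophages and 748 to 5275 in WT macrophages. In microglia it had 5 to 23 counts in CD163KO libraries and 0 to 101 in WT libraries. Male WT MONO and male WT PFF microglia held 0 and 1. Counts of Cd163 therefore do not check the genotype labels of microglia. By Y-linked genes, 1 library went against its sex label. Microglia labelled female CD163KO MONO held 799 counts of these genes, and the other female libraries at most 2. Libraries of male CD163KO MONO mice were left out by the study, so they are described here and enter no main test. That left 14 libraries, 7 of each population. Male WT PFF libraries stood apart in both populations. The macrophage library listed 8378 genes against 9775 to 12992 in the others, and its median correlation with the others of its population was 0.803. In the male WT PFF microglia, Cst3, the cystatin C gene, took 34.5% of the summed FPKM against 10.9% to 12.9% in the other microglia libraries tested. The mice were handled in batches, and the labels do not give the batch of a library. The part of batch in these differences was therefore not tested.

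Members were first ordered by their median FPKM, which is scaled to length, within each population. In microglia the order was Hvcn1 (76.2), Kcnk13 (38.6), Trpv2 (37.8), Kcnk6 (21.5), Trpm2 (13.8), Kcnj2 (5.71), Kcnn4 (2.72) and Kcna3 (1.14). In macrophages it was Kcnn4 (8.07), Hvcn1 (8.01), Trpv2 (5.30), Kcnk13 (2.82), Trpm2 (1.55), Kcnk6 (0.97), Kcnj2 (0.34) and Kcna3 (0.22). Homeostatic microglia markers had a summed FPKM of 916 to 1735 in macrophage libraries and of 16628 to 42722 in microglia. The part of microglial RNA in the macrophage levels was not tested. The calcium-activated channel Kcnn4 stood next to last in microglia, and in macrophages its median was close to that of Hvcn1, which it exceeded in 3 of 7 libraries. Neighbours in the order were compared over the 7 libraries with a two-sided exact sign-flip permutation test of log2(FPKM + 1), 14 comparisons in all, where 0.0156 is the smallest p that 7 libraries allow. In microglia, Hvcn1 exceeded Kcnk13, Kcnk6 exceeded Trpm2 and Trpm2 exceeded Kcnj2 in 7 of 7 libraries, each with an exact p of 0.0156. In macrophages, Trpv2 exceeded Kcnk13 in 7 of 7 libraries with the same exact p. After Benjamini-Hochberg adjustment these 4 values were 0.0547, and no pair of neighbours passed 0.05. The order was set by the same 7 libraries, so these p-values are not independent support for it. Kcnk13 and Trpv2 in microglia differed by 0.03 on the log2 scale, with Kcnk13 higher in 3 of 7 libraries.

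**Figure D1:**
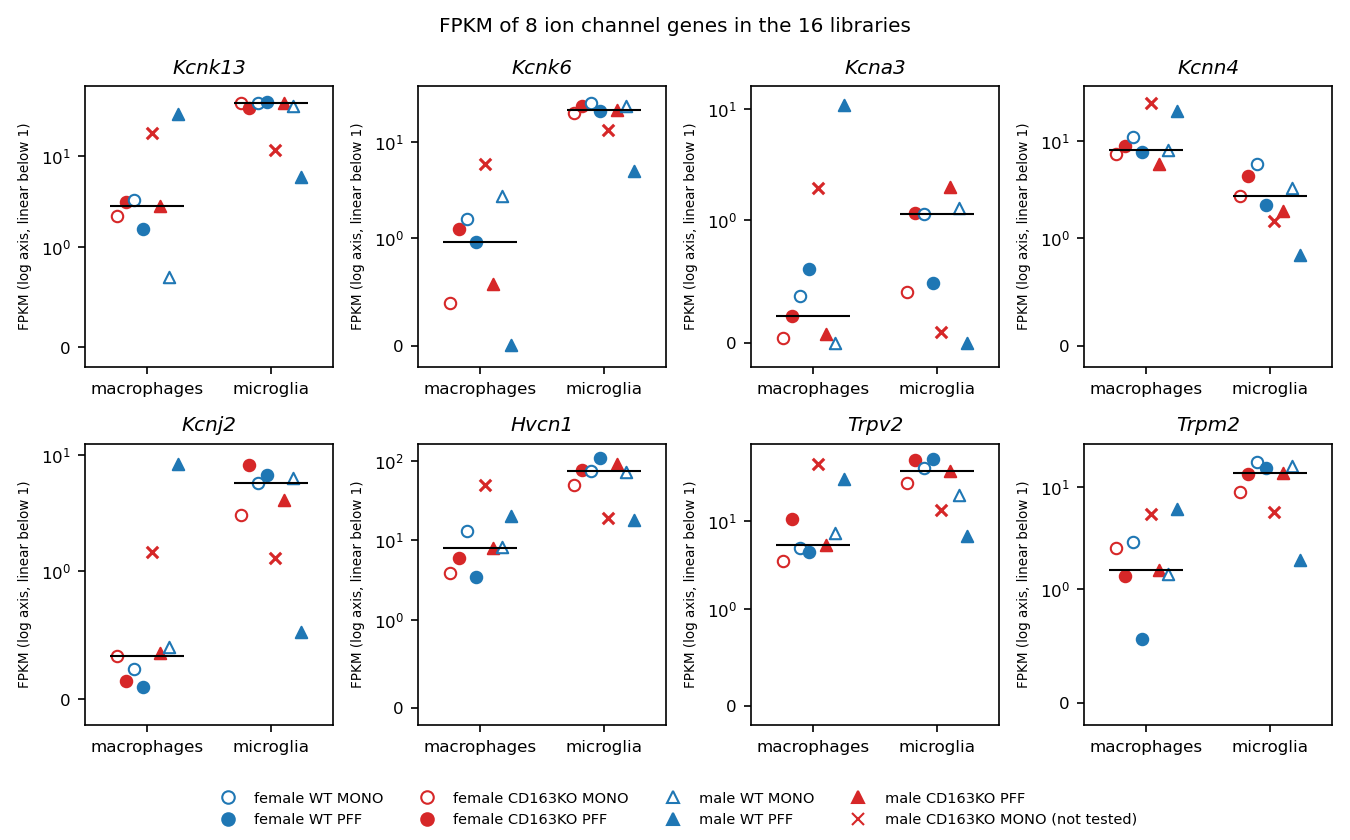
FPKM of the 8 channel genes in each of the 16 libraries, on an axis that is logarithmic above 1 and linear below, with macrophages left and microglia right. WT is blue and CD163KO red, PFF filled and MONO open, females are circles and males triangles, crosses are the male CD163KO MONO libraries that were not tested, and bars mark the medians of the 7 others. For most genes the male WT PFF libraries sit high among macrophages and low among microglia.

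Microglia were then compared with macrophages within each combination of sex, genotype and treatment by edgeR's quasi-likelihood test, in which a gene was called at an adjusted p of at most 0.05 and a log2 fold change of at least 1 in size. Kcnk13, Kcnk6 and Hvcn1 were higher in microglia and Kcnn4 was lower, and the other 4 members were not called. Of the 13704 genes tested, 6.22% were called higher and 10.7% lower. The values below are TMM-scaled CPM, counts relative to the scaled size of the library, which allow for libraries in which a few genes take many of the reads, and they compare a gene only with itself. Overlap between the populations is described for each member, and the share of all genes without overlap was not counted. In bulk libraries, fewer cells of a type and less RNA per cell cannot be told apart.

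Kcnk6 had a scaled CPM of 39.8 at the lowest, 46.6 at the median and 48.2 at the highest in the 7 microglia libraries, and of 0.04, 8.01 and 12.3 in macrophages. The groups did not overlap, and the microglia values spanned a narrow range. Kcnk6 was 8.11-fold higher in microglia (95% interval 2.60 to 25.3), with a log2 fold change of 3.02 ± 0.75 (SE, adjusted p = 0.0148), and was higher in 7 of 7 pairs. The lowest macrophage value came from the male WT PFF library, with 1.1 estimated counts, and without this pair the log2 fold change was 2.52. Estimated counts of Kcnk6 were not whole numbers in any library although 1 transcript was listed, so RSEM had divided reads between it and other transcripts, and its level is uncertain to that extent.

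Kcnk13 had a scaled CPM of 40.7, 55.0 and 61.0 (lowest, median and highest) in microglia and of 2.38, 14.4 and 65.4 in macrophages. The groups overlapped through 1 library, the male WT PFF macrophages, which were above all microglia libraries. Kcnk13 was 3.68-fold higher in microglia (95% interval 1.72 to 7.87), with a log2 fold change of 1.88 ± 0.50 (SE, adjusted p = 0.0215), and was higher in 6 of 7 pairs. Without the male WT PFF pair the log2 fold change was 2.25 (adjusted p = 0.000215). The call was lost when any 1 of 4 female pairs was left out, with adjusted p between 0.0565 and 0.063 and log2 fold changes between 1.84 and 1.90, and among these was the pair whose microglia library held Y-linked counts (adjusted p = 0.063).

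Hvcn1, the voltage-gated proton channel, had a scaled CPM of 66.1, 105 and 148 in microglia and of 23.4, 28.9 and 52.4 in macrophages. The groups did not overlap. Hvcn1 was 3.10-fold higher in microglia (95% interval 2.19 to 4.40), with a log2 fold change of 1.63 ± 0.23 (SE, adjusted p = 0.000386), and was higher in 7 of 7 pairs. Its counts were divided among 3 RefSeq transcripts. NM_001042489 held a median of 94.8% of them in macrophages (range 0% to 100%) and 21.0% in microglia (range 1.04% to 80.3%), and NM_028752 held a median of 54.6% in microglia (range 0% to 78.9%). The split between transcripts thus ranged widely within a population and was not tested.

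Kcnn4 was the only member called lower in microglia, with a scaled CPM of 1.84, 3.07 and 5.27 there and of 17.3, 28.9 and 44.6 in macrophages. The groups did not overlap. Kcnn4 was 9.16-fold lower in microglia (95% interval 4.26 to 19.7), with a log2 fold change of -3.20 ± 0.51 (SE, adjusted p = 0.000864), in 7 of 7 pairs. Neutrophil markers moved in the same direction, as given above. So did 5 monocyte markers, with a summed FPKM of 292 to 2872 in macrophages and of 7.52 to 76.9 in microglia, and 7 markers of NK and T cells, with 40.7 to 194 and 0.23 to 5.91. The part of these cells in the result was not tested.

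Trpm2, a cation channel opened by ADP-ribose and oxidative stress, and Kcnj2 missed the call by the adjusted p. Trpm2 had a scaled CPM of 32.4, 51.2 and 60.4 in microglia and of 11.5, 27.0 and 39.6 in macrophages, with overlap, and a log2 fold change of 1.13 ± 0.39 (SE, adjusted p = 0.0648, higher in 5 of 7 pairs). Kcnj2 had a scaled CPM of 6.52, 14.7 and 22.5 in microglia and of 1.18, 2.49 and 33.2 in macrophages, and a log2 fold change of 2.11 ± 0.90 (SE, adjusted p = 0.134). The highest macrophage value of Kcnj2 was again that of the male WT PFF library, and Kcnj2 was higher in microglia in the other 6 pairs. Without this pair both genes were called, Kcnj2 at a log2 fold change of 2.61 (adjusted p = 0.00223) and Trpm2 at 1.32 (adjusted p = 0.00581), so that 5 members were higher and 1 lower, against 29.4% of all genes called in either direction. Trpm2 was also called without the pair whose microglia library held Y-linked counts (1.37, adjusted p = 0.045).

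Trpv2, a cation channel of macrophages with a role in phagocytosis, and the voltage-gated Kcna3 were further from the call. The scaled CPM of Trpv2 was 26.4, 51.6 and 70.2 in microglia and 19.0, 34.2 and 61.9 in macrophages, the groups overlapped, and the log2 fold change was 0.59 ± 0.29 (SE, adjusted p = 0.181, higher in 6 of 7 pairs). Kcna3 was low in both populations, with 0 to 61 estimated counts in microglia and a median of 5 in macrophages. The male WT PFF macrophages held 383 counts of it. The log2 fold change of Kcna3 was 0.34 with a 95% interval of -3.48 to 4.16 (adjusted p = 0.912, higher in 5 of 7 pairs), which at these few counts leaves either direction possible. Its sign turned in several alternatives, such as without the male WT MONO pair (-0.38) and without the block (-1.78).

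**Figure D2:**
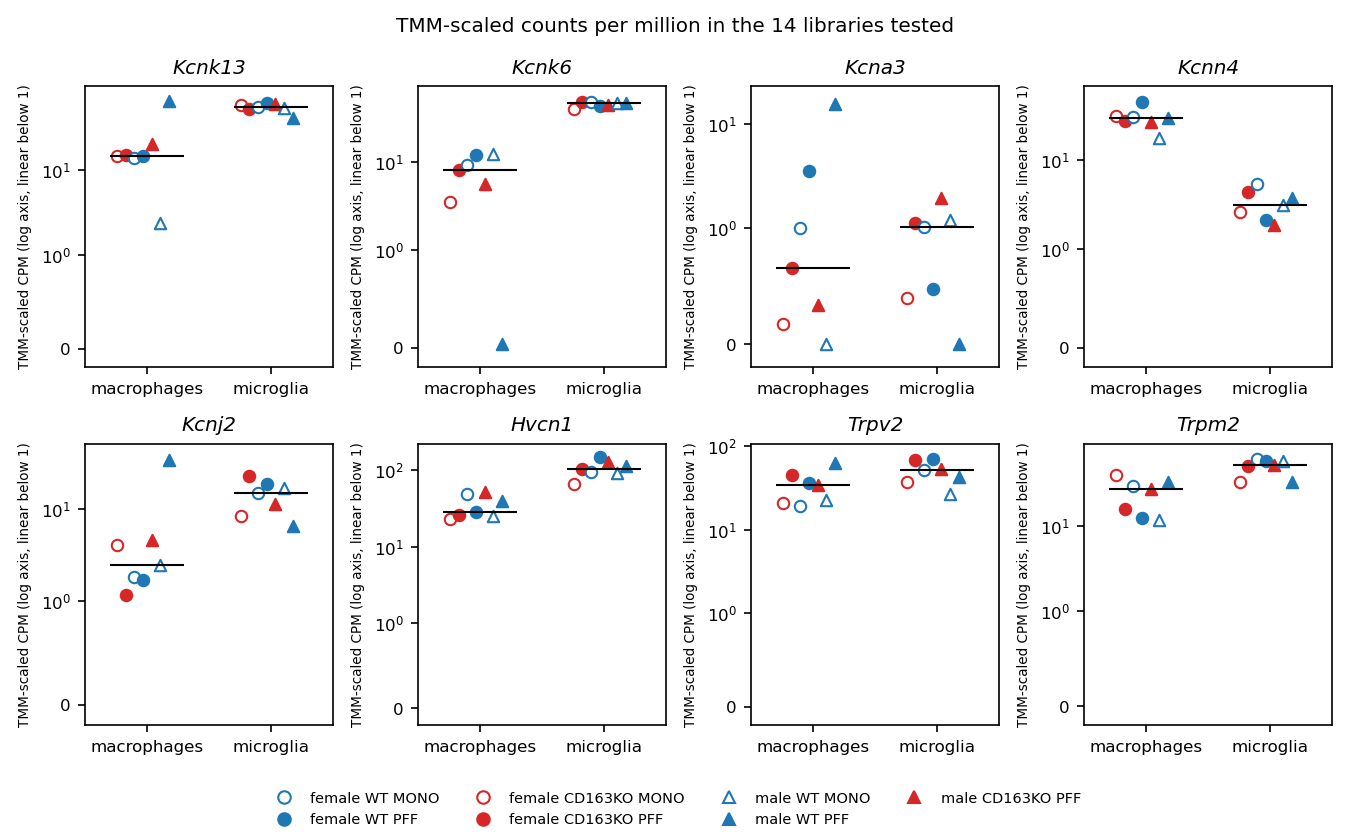
TMM-scaled CPM of each member in the 14 libraries tested, on an axis that is logarithmic above 1 and linear below, with bars at the medians of 7 libraries (WT blue, CD163KO red, PFF filled, MONO open, females circles, males triangles). Kcnk6, Hvcn1 and Kcnn4 show no overlap between populations, and in Kcnk13 and Kcnj2 the male WT PFF macrophages lie above all microglia libraries. The share of all genes without overlap was not counted.

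The size of these differences rests on the scaling. With library size alone, the median log2 fold change of all genes moved from 0.37 to 1.96, a shift of 1.58, and 6 members were called higher and 0 lower (46.1% of all genes were called), against 3 higher and 1 lower with TMM. Kcnn4 then had a log2 fold change of -1.72 (adjusted p = 0.0721). Relative to the median of all genes it was lower under both scalings, and Kcnk6, Kcnk13, Hvcn1, Trpm2, Kcnj2 and Trpv2 were above the median of all genes under both. DESeq2, which differs in test, filter and scaling, gave 5 members higher and 1 lower, and called 24.0% of all genes.

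**Figure D3:**
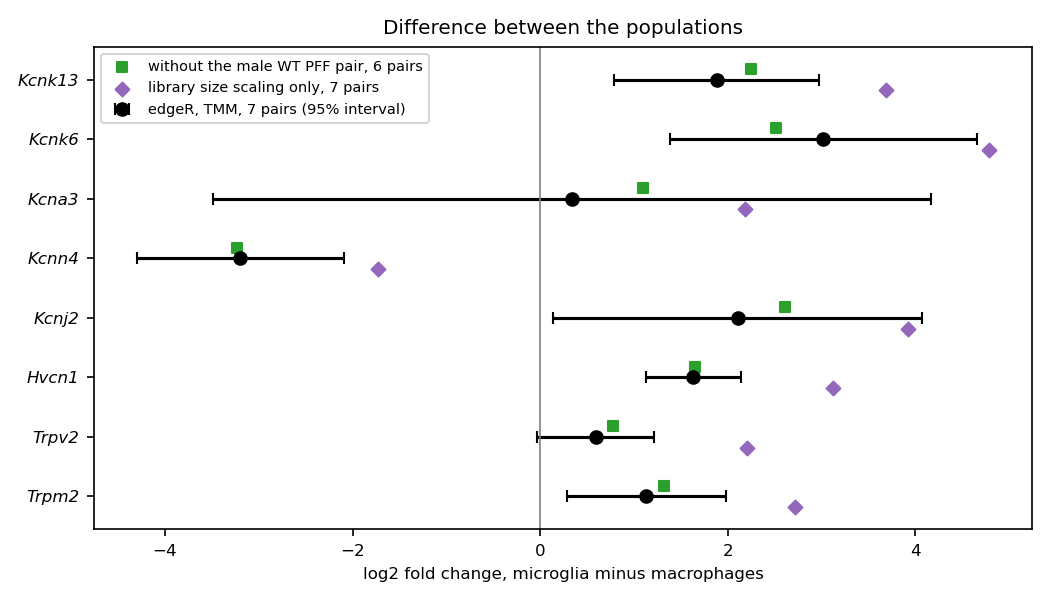
Log2 fold change of each member between microglia and macrophages (circles, edgeR with TMM on 7 pairs, bars give the 95% interval), without the male WT PFF pair (squares) and with library size scaling only (diamonds). Kcnn4 is the only member to the left of 0 under all 3, and library size scaling moves every member to the right.

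Of 78 other channel and transporter genes, 63 were tested between the populations, of which 7 (11.1%) were higher and 6 (9.52%) lower in microglia, against 6.22% and 10.7% of all genes. Their median log2 fold change was 1.18, against 0.37 over all genes. Called higher were 2 of 11 genes of calcium release and store-operated entry, 2 of 9 other cation channels, 1 of 7 genes of the TRP family and polycystins, 1 of 9 endolysosomal channels and 1 of 5 pumps and exchangers. Called lower were 3 of 11 chloride and volume-regulated channels and scramblases, 1 of 11 potassium channels and subunits, 1 of the calcium release genes and 1 of the other cation channels. Trpm4, a calcium-activated monovalent cation channel of the same family as Trpm2, had a log2 fold change of 4.80 and a median FPKM of 5.74 in microglia against 0.10 in macrophages. Next were P2rx1, an ATP-gated channel (4.44), Tmem63a, a mechanically gated channel (3.21, median FPKM 77.1 against 3.26), and Orai2, of store-operated calcium entry (3.13). On the lower side were Ryr1, the calcium release channel of muscle (-8.73, at most 7 counts in any microglia library), Kcne3, a potassium channel subunit (-8.15, median FPKM 0 in microglia and 7.98 in macrophages), Lrrc8c, a subunit of the volume-regulated anion channel (-6.11), and Clic4, an intracellular chloride channel protein (-3.10). None of these genes was called in any comparison within a population. The FPKM of Kcne3, Lrrc8c and Clic4 overlapped between the populations. It was 0, 0.21 and 3.73 at the lowest in macrophages and 2.52, 1.46 and 6.95 at the highest in microglia.

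Treatment was compared within each population, in a model that also held sex and genotype. No member was called for PFF against MONO. In macrophages 0% of the 11988 genes tested were called higher and 0% lower, and in microglia 0% of 12725 were called in either direction. At an unadjusted p below 0.05, edgeR held 141 genes in macrophages, 0 of them members, and 783 in microglia, 2 of them members. DESeq2 called no member either, nor did limma among the members it tested, which in macrophages left out Kcna3 and Kcnj2 for their low FPKM.

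The 2 members were Trpv2 and Hvcn1. In microglia the scaled CPM of Trpv2, set within the population, was 110 with PFF against 59.0 with MONO in female CD163KO mice, 112 against 83.0 in female WT mice and 72.4 against 42.1 in male WT mice. It was higher with PFF in 3 of 3 comparisons of libraries, and the log2 fold change was 0.76 ± 0.29 (SE, adjusted p = 0.766), where the median of all genes was 0.13. Hvcn1 gave 168 against 106, 237 against 153 and 193 against 148 in the same order, also higher with PFF in 3 of 3, with a log2 fold change of 0.63 ± 0.28 (SE, adjusted p = 0.766). On the FPKM scale the male WT mice went the other way, with 6.80 against 19.9 for Trpv2 and 17.97 against 72.2 for Hvcn1, in the library where Cst3 took 34.5% of the FPKM. With library size scaling only, the log2 fold changes were 0.25 for Trpv2 and 0.17 for Hvcn1, and limma on log2(FPKM + 1) gave 0.17 and -0.01. Without the microglia library that held Y-linked counts against its label, they were 0.60 and 0.51. In microglia the summed FPKM of monocyte markers was lower with PFF, with 22.3 against 44.8, 26.5 against 58.3 and 7.52 against 76.9. That of neutrophil markers went both ways, with 1223 against 1085, 950 against 1117 and 1391 against 2699. The part of these cells in the values of Trpv2 and Hvcn1 was not tested.

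In macrophages Trpv2 was also higher with PFF in 3 of 3 comparisons, with a scaled CPM of 28.5 against 12.5 in female CD163KO, 22.8 against 11.7 in female WT and 38.5 against 13.8 in male WT mice, and a log2 fold change of 1.12 ± 0.54 (SE, adjusted p = 1). On the FPKM scale it was higher in 2 of 3, with 4.45 against 5.01 in female WT mice, and with the male CD163KO MONO library included the log2 fold change was 0.58. Some marker levels moved with treatment in the same 3 comparisons, and others went both ways. Border-associated macrophage markers had a summed FPKM of 3529 against 2684, 1503 against 2484 and 3955 against 4298. Homeostatic microglia markers had 1295 against 916, 1045 against 1413 and 1735 against 1132. The summed FPKM of the 10 neutrophil markers was lower with PFF, with 32781 against 98573, 22097 against 120742 and 71019 against 117864, none of them at 0. That of the 5 monocyte markers was also lower, with 511 against 654, 292 against 1404 and 1441 against 1647, at most 1 of them at 0. The part of these cells in the values of the members was not tested.

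Kcna3 had the largest log2 fold change of the 8 members for PFF in macrophages, on few counts. Its scaled CPM was 0.41 against 0.11 in female CD163KO, 2.20 against 0.62 in female WT and 9.58 against 0 in male WT mice, so higher with PFF in 3 of 3. The log2 fold change of 3.65 had a 95% interval of -2.82 to 10.1 (adjusted p = 1), and it ran from 1.40 to 5.82 over the 13 alternatives that gave a value. Kcnk13 gave 9.49 against 8.78 and 9.06 against 8.62 in females and 40.7 against 1.46 in male WT mice, so its log2 fold change of 1.35 ± 1.24 (SE, adjusted p = 1) came from 1 comparison, and it was 0.08 in female libraries only. Kcnj2 was lower with PFF in females, with 0.74 against 2.46 and 1.05 against 1.12, and higher in males, with 20.7 against 1.53, and its log2 fold change was 0.20 over all libraries tested and -0.91 in female libraries only. No member was called in the test of whether the treatment effect differed between the populations. There edgeR called 0% of 13704 genes in either direction, 133 genes had an unadjusted p below 0.05, and 0 of them were members. The difference for Trpv2, microglia minus macrophages, was -0.31 with a 95% interval of -1.80 to 1.18.

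**Figure D4:**
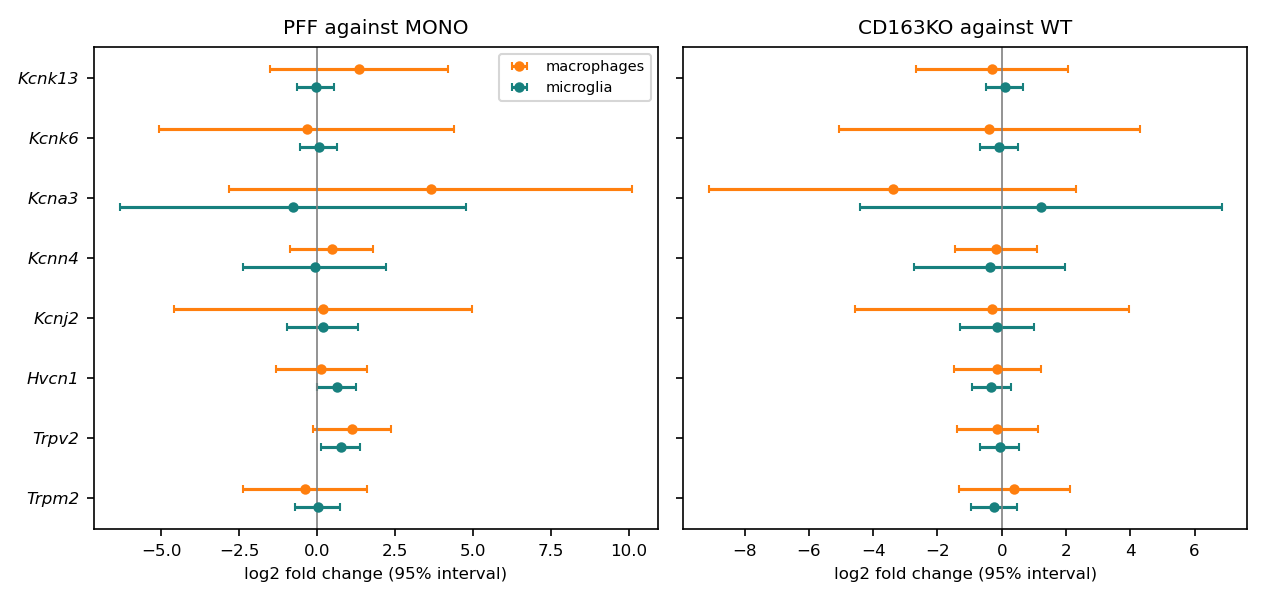
Log2 fold change of each member for PFF against MONO (left) and CD163KO against WT (right) in macrophages and microglia, with 95% intervals from edgeR on 7 libraries per population. The intervals of Trpv2 and Hvcn1 in microglia lie above 0 on the left before adjustment over all genes, and all intervals on the right cross 0.

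Deletion of Cd163 gave no call among the members in either population. In macrophages 0% of genes were called higher and 0.00834% lower, which is 1 gene, the deleted Cd163 itself (named after its value was seen), and in microglia 0% were called in either direction. At an unadjusted p below 0.05 there were 89 genes in macrophages and 154 in microglia, 0 of them members in both. DESeq2 called no member, and limma none of those it tested, again without Kcna3 and Kcnj2 in macrophages. In microglia the 95% intervals for CD163KO against WT were -0.49 to 0.68 for Kcnk13, -0.68 to 0.52 for Kcnk6, -0.93 to 0.28 for Hvcn1, -0.68 to 0.54 for Trpv2 and -0.96 to 0.47 for Trpm2. With 7 libraries these intervals held no log2 difference of 1 in size, but this limit rests on single libraries. Without the female-labelled library that held Y-linked counts the interval of Hvcn1 was -1.04 to 0.63, and the other 4 stayed inside 1, with Trpm2 at -0.65 to 0.99. Without the female WT PFF library all 5 reached past 1 in size, from -0.58 to 1.15 for Kcnk13, -1.09 to 0.67 for Kcnk6, -1.11 to 0.69 for Hvcn1, -1.03 to 0.77 for Trpv2 and -1.22 to 0.91 for Trpm2. The 7-library intervals of the other 3 members were -4.41 to 6.84 for Kcna3, -2.73 to 1.97 for Kcnn4 and -1.31 to 0.99 for Kcnj2, which take in a log2 difference of 1 in at least 1 direction. Intervals in macrophages were wider, from -1.49 to 1.22 for Hvcn1 and from -5.07 to 4.29 for Kcnk6. In the test of whether the genotype effect differed between the populations, no member was called. There 0% of genes were called higher or lower, 96 had an unadjusted p below 0.05 and 0 of these were members.

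No member was called between males and females. In macrophages 0.00834% of genes were called higher in males, which is 1 gene, the Y-linked Ddx3y (named after its value was seen), and 0% lower, and in microglia 0% were called in either direction. With an unadjusted p below 0.05 there were 187 genes in macrophages, 0 of them members, and 220 in microglia, of which 1 was a member. This was Trpv2, lower in males in 3 of 3 comparisons of microglia libraries, with a scaled CPM of 83.5 against 110 in CD163KO PFF, 42.1 against 83.0 in WT MONO and 72.4 against 112 in WT PFF mice. Its log2 fold change was -0.62 ± 0.28 (SE, adjusted p = 1), and -0.67 without the female-labelled library that held Y-linked counts. It was -1.04 with library size scaling only, -1.14 and -1.19 with limma on log2(FPKM + 1) and log2(FPKM + 0.1), and -0.41 with all libraries. In these 3 comparisons neutrophil markers had a higher summed FPKM in males, with 2490 against 1223, 2699 against 1117 and 1391 against 950. Monocyte markers went both ways, with 73.8 against 22.3, 76.9 against 58.3 and 7.52 against 26.5. The part of these cells in the value of Trpv2 was not tested.

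In the male CD163KO MONO macrophages the FPKM of Hvcn1 reached 49.8, Trpv2 45.6, Kcnn4 24.8 and Kcnk13 18.2, each above the other macrophage libraries except the male WT PFF library for Kcnk13. In the microglia of these mice Kcnk13 was at 11.7, Hvcn1 at 18.95 and Trpv2 at 13.6, each below all other microglia libraries except the male WT PFF library, and Cst3 took 32.2% of the summed FPKM. The reads of Kcnk13 in these macrophages were assigned to NM_001164427, which no other library listed, and those of the other 15 libraries to NM_146037.

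For each member, the genes most alike in log2(FPKM + 1) over the 16 libraries were sought among 6607 or 6608 genes with a mean FPKM of at least 5. Pearson's r was 0.987 for Matk and 0.98 for Adam17 with Kcnk13, 0.991 for Fcrl1 and 0.987 for Tmem63a with Kcnk6, and 0.977 for Tpst2 and 0.976 for Arap3 with Hvcn1. Kcnn4 went with Sema4a (0.954) and Ecm1 (0.948), Trpv2 with Icosl (0.979) and Plbd2 (0.967), Trpm2 with Ltbr (0.975) and Pde4dip (0.973), Kcnj2 with Xab2 (0.974) and Tgif2 (0.972), and Kcna3 with Dhrs11 (0.915) and Appbp2 (0.903). The 16 points share the split into populations and the composition of the libraries that stood apart, and the values are a description.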

How the data were processed

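RNA of macrophages (10000 to 30000 cells) and microglia (200000 to 500000 cells) was sequenced by SMART-seq2, with 1 table per combination of population, sex, genotype and treatment. Whether a table holds 1 of the stated triplicates or their pooled reads is not given in the sources used here. According to the methods and the submitters' processing notes, reads were mapped with Bowtie2 to RefSeq transcripts (mm10) and quantified with RSEM. The estimated counts (expected counts) were deposited by the authors without normalization, and RSEM also gave the authors' FPKM, scaled to transcript length and to assigned reads. Transcripts were matched to symbols through the RefSeq table of GRCm38.p6 (27632 of 27787 matched; those without a symbol held at most 0.128% of a library's counts) and summed per gene, with unlisted transcripts taken as 0. Promoter windows came from RefSeq, GRCm38.p6.

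Counts were rounded and tested with edgeR 4.0.16 (R 4.3.3; TMM, filterByExpr, robust quasi-likelihood test, Benjamini-Hochberg over all genes tested). Populations were compared with the combination of sex, genotype and treatment as block, and treatment, genotype and sex within a population by an additive model of 7 libraries. Libraries that differ in the other factors thus stand in as replicates, and p-values measure the spread left by the model, any interaction included. The study's batches are not in these models, because the labels do not give the batch of a library. By its account, the study corrected a batch effect and removed outlier samples after principal component analysis. The counts tested here were not corrected for batch. The labels do not show whether reads of the removed samples are in these tables. Batch can therefore not be separated from sex, genotype and treatment here. Levels of genes were compared on log2(FPKM + 1), a scale that understates the change of low genes. The alternatives were library size scaling, DESeq2 1.42.0, no filter, limma 3.58.1 on log2(FPKM + 1), log2(FPKM + 0.1) and quantile-scaled FPKM (genes at FPKM 1 or above in 2 libraries), all libraries, each library or pair left out, the microglia library with Y-linked counts left out, and fewer terms. Fits without the male WT PFF libraries and with female libraries only were chosen after seeing the data. The edgeR procedure was run on simulated data only to check that the code works. The simulated spread between libraries was smaller than in these data, so that run does not show how the tests perform here. The members, gene lists and tests were chosen with earlier results of these data known. Named genes are the 8 members, of the 78 other channel genes up to 4 called higher and 4 called lower per comparison by the size of the log2 fold change, and for each member the 2 genes with the highest Pearson correlation over the 16 libraries. Of the marker lists (homeostatic microglia, border-associated macrophages, neutrophils, monocytes, NK and T cells) summed FPKM are given. Protein sequences were not used here.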

Additional observations from a re-analysis of the deposited data

Results flagged for a closer look

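Of 16 sets of 7 FPKM values (8 members in 2 populations), 8 held a value whose gap to its nearest neighbour was above Dixon's 95% limit of 0.568 of the range, where chance gives about 1 in 20. All 8 came from the male WT PFF libraries. Among macrophages these were the highest values of Kcnk13 (29.3, next 3.30), Kcna3 (10.8, next 0.60), Kcnj2 (8.27, next 0.41), Trpv2 (30.9, next 10.5), Kcnn4 (20.5, next 11.2) and Trpm2 (6.05, next 2.87). Among microglia they were the lowest values of Kcnk13 (5.85, next 34.1) and Kcnk6 (5.00, next 19.7). On the TMM-scaled CPM of each population, 3 of the 8 were still past the limit, those of Kcnk13, Kcna3 and Kcnj2 in macrophages. Trpv2 in macrophages (38.5, next 28.5) and Kcnk13 in microglia (69.4, next 83.6) stood at the same end within the limit. Kcnn4 (18.01, highest 27.96) and Trpm2 (20.2, highest 24.1) were not the highest in macrophages, and Kcnk6 in microglia (79.7) was the highest, not the lowest. In these libraries the summed FPKM of the homeostatic microglia markers was 1735 in macrophages and 42722 in microglia, each the highest of its population, and that of the border-associated macrophage markers was 3955 and 27.8.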

How the results depend on the processing

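The number of members called between the populations, 4 with TMM and edgeR, rose to 7 with limma on log2(FPKM + 1) and to 7 with limma on log2(FPKM + 0.1), which called 48.8% and 53.6% of all genes against 16.9%. It was 3 to 6 when a pair was left out (12.9% to 29.4% of all genes) and 4 to 6 under the other alternatives run (12.9% to 46.1%), and without the block it was 5 (24.0%). No called member changed direction under any alternative. Hvcn1 and Kcnk6 kept the call under each one, Kcnn4 lost it with library size scaling only, and Kcnk13 lost it without a female pair as given above. No member was called for treatment, genotype or sex, or for the difference of the treatment or genotype effect between the populations, under any alternative run, though the signs of uncalled members moved in some, as for Kcnj2 with PFF in macrophages (0.20, and -0.48 without the male WT PFF libraries). The comparison of populations is the paired one, by combination of sex, genotype and treatment, and no replicate numbers pair the libraries within a population. With 1 library per combination, wide intervals limit what could be seen in macrophages, and low counts limit Kcna3.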
